A study of Mus musculus with 200 samples.

Results

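The levels of 10 genes of the segmentation clock and the tail bud, *Hes7*, *Lfng*, *Mesp2*, *Dll1*, *Dll3*, *Tbx6*, *Msgn1*, *Ripply2*, *T* and *Wnt3a*, were followed across mouse embryos that were still adding somites. The genes were picked by symbol, and all 10 were found among the 22033 genes of the expression and allele tables. Single whole embryos were collected at E11.5 without membranes or placenta, received no treatment, and were profiled by 3SEQ, a form of RNA sequencing that reads the 3′ ends of polyadenylated transcripts. C57BL/6J (B6) and CAST/EiJ (Cast) mice were crossed in both directions, giving 8 B6 × Cast F1 embryos (mother named first, 2 litters, 48 to 63 somites) and 8 Cast × B6 F1 embryos (2 litters, 41 to 48 somites). F1 animals from B6 mothers were then backcrossed to B6, giving 89 B6 × F1 N2 embryos (17 litters, 42 to 57 somites) and 65 F1 × B6 N2 embryos (12 litters, 43 to 54 somites). Every embryo thus carried at least 1 B6 copy of each autosome, F1 embryos were B6/Cast throughout, and N2 embryos were B6/B6 or B6/Cast at each gene. A somite number was given for 13 of 16 F1 and 147 of 154 N2 embryos.

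Somites bud off in pairs from the presomitic mesoderm, a tissue fed by the tail bud. In this tissue a transcriptional oscillator driven by Notch signalling, with Wnt and FGF inputs from the tail bud, runs with the rhythm at which somites form. The presomitic mesoderm is a small piece of an embryo at this stage. A level measured in a whole embryo therefore averages over every other tissue that uses the gene. Those of the genes that cycle were sampled at a single moment in each embryo, and its phase is not known. In such bulk samples, fewer cells of a type and less RNA per cell cannot be told apart.

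Between 15703888 and 38234229 reads were counted on genes in an F1 embryo, and between 245220 and 5370322 in an N2 embryo, with a median of 2297773.5. Levels are given as RPM, in which the gene counts of each embryo are scaled to a total of 1000000. At N2 depth most of these genes were represented by a handful of reads, so single N2 embryos carried little precision and F1 embryos much more. N2 libraries were sequenced in 14 lanes, A to G on 1 flowcell and H to N on the other. The cross and the stage were linked in the F1 generation, since embryos of Cast mothers were younger than or as old as the youngest embryos of B6 mothers, and 1 of the Cast × B6 litters (litter 2) was sequenced on another pair of runs than the remaining 3 litters.

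Of the transcription factors, *Mesp2*, which sets the position of the next somite boundary, lies on chromosome 7 at 86955613 to 86958317 (plus strand, mm9), and its neighbour *Mesp1* lies 16938 bases away on the opposite strand. *Tbx6*, a T-box factor that keeps presomitic cells mesodermal and acts upstream of *Mesp2*, lies on chromosome 7 at 133924997 to 133929074 (plus strand). *T*, the Brachyury factor of the tail bud and notochord, lies on chromosome 17 at 8627288 to 8635361 (plus strand), and *Msgn1*, the bHLH factor that drives progenitors into the presomitic mesoderm, on chromosome 12 at 11215188 to 11215754 (minus strand). *Hes7*, the repressor at the core of the oscillator, lies on chromosome 11 at 68933906 to 68937557 (plus strand), where the annotation also has an antisense gene, 9130213A22Rik. *Ripply2*, a corepressor that ends *Tbx6* activity at the forming boundary, lies on chromosome 9 at 86910372 to 86914751 (plus strand). Of the signalling genes, the Notch ligand *Dll1* lies on chromosome 17 at 15504318 to 15513836 (minus strand) and overlaps A930024N18Rik on the other strand. *Dll3*, a divergent ligand that dampens Notch signalling inside the cell, lies on chromosome 7 at 29076673 to 29087257 (minus strand). *Lfng*, the glycosyltransferase that modifies Notch in time with the cycle, lies on chromosome 5 at 141083295 to 141091497 (plus strand). *Wnt3a*, the Wnt ligand of the tail bud and dorsal neural tube, lies on chromosome 11 at 59061535 to 59104254 (minus strand). Strand use in counting is not given in the sources used here, so reads of *Hes7* and *Dll1* may include reads of their antisense partners.

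The results below turn mainly on *Mesp2*, *Dll3*, *Tbx6* and *Hes7*, and the 200 bases before the start site of each are shown because the tests of stage, genotype and missing somite numbers below are described mainly for these genes. The sequences are those of RefSeq on GRCm38.p6, a later build than the mm9 of the coordinates above, and represent the B6 genome. All 10 genes had an entry. Capitals mark the motifs searched: TGGGAA, the core that RBPJ binds in Notch targets, TCACAC, a T-box core, and CTTTGA, a LEF/TCF core, each on both strands, and TATAA on the sense strand within 50 bases of the start.
Mesp2, chr7:79810527-79810726, plus strand: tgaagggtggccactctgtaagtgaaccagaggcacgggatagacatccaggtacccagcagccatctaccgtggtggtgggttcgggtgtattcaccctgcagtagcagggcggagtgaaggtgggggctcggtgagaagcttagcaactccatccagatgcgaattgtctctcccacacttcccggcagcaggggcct
Dll3, chr7:28301786-28301985, minus strand: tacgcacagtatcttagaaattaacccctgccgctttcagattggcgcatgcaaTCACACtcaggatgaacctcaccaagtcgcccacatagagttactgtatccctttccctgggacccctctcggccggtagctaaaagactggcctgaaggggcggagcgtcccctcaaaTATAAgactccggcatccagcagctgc
Tbx6, chr7:126781283-126781482, plus strand: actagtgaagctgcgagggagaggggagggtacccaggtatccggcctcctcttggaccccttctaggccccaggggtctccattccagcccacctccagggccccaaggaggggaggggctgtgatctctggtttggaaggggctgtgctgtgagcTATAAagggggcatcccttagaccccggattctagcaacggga
Hes7, chr11:69120253-69120452, plus strand: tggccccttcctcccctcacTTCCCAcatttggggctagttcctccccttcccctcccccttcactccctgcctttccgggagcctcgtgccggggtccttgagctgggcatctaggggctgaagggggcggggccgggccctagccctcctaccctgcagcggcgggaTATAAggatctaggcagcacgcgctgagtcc

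None of the 4 motifs was found in the *Mesp2* window. The *Dll3* window held a T-box core 146 bases before the start and a TATAA 27 bases before it. The *Hes7* window held the RBPJ core on the reverse strand, 180 bases before the start, and a TATAA 31 bases before it, and the *Tbx6* window a TATAA 43 bases before the start. In windows of the same length over 32851 promoters of the table, the RBPJ core was found in 17.3%, the T-box core in 9.85%, the LEF/TCF core in 10.9% and the TATAA in 4.93%. Among the 10 genes, the RBPJ core was found for *Hes7*, *Lfng* and *Msgn1*, the T-box core for *Dll3* and *Ripply2*, the LEF/TCF core for *Msgn1*, and the TATAA for *Hes7*, *Dll3* and *Tbx6*. These matches describe the letters of the windows and were not tested as binding sites.

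Because 3SEQ takes reads from the 3′ ends of transcripts, levels of different genes are set side by side here on the RPM scale without division by gene length. *Lfng* and *Dll3* were the most abundant of the 10 and *Msgn1* the least. Across the 154 N2 embryos the mean was 41.1 ± 20.2 RPM for *Lfng* (SD, n = 154), 15.8 ± 6.62 for *Dll3* and 7.06 ± 7.98 for *Dll1*. *Tbx6* had 2.76 ± 1.77 RPM, *Hes7* 2.23 ± 1.51, *Mesp2* 2.23 ± 2.27 and *Wnt3a* 1.90 ± 1.40, 4 genes whose means lay within 1 SD of each other. *T* had 0.801 ± 1.29 RPM with 81 embryos at 0, *Ripply2* 0.223 ± 0.606 with 109 at 0, and *Msgn1* 0.0182 ± 0.0967 with 148 at 0.

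The F1 embryos had the same genes at the top and the bottom of this order. *Lfng* ranged from 27.9 to 43.1 RPM over the 16 embryos with a median of 32.6, and *Dll3* from 15.2 to 40.9 with a median of 22.2. *Mesp2* ranged from 2.52 to 6.42 (median 4.28), *Dll1* from 2.52 to 7.87 (median 3.84), *Tbx6* from 0.755 to 5.50 (median 3.83), *Wnt3a* from 1.62 to 6.53 (median 2.85) and *Hes7* from 1.13 to 4.37 (median 2.49). Neighbouring genes among these 5 overlapped widely. *T* lay between 0.127 and 1.14, *Ripply2* between 0.0689 and 0.609, and *Msgn1* between 0 and 0.377, with 7 of 16 embryos at 0.

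**Figure D1:**
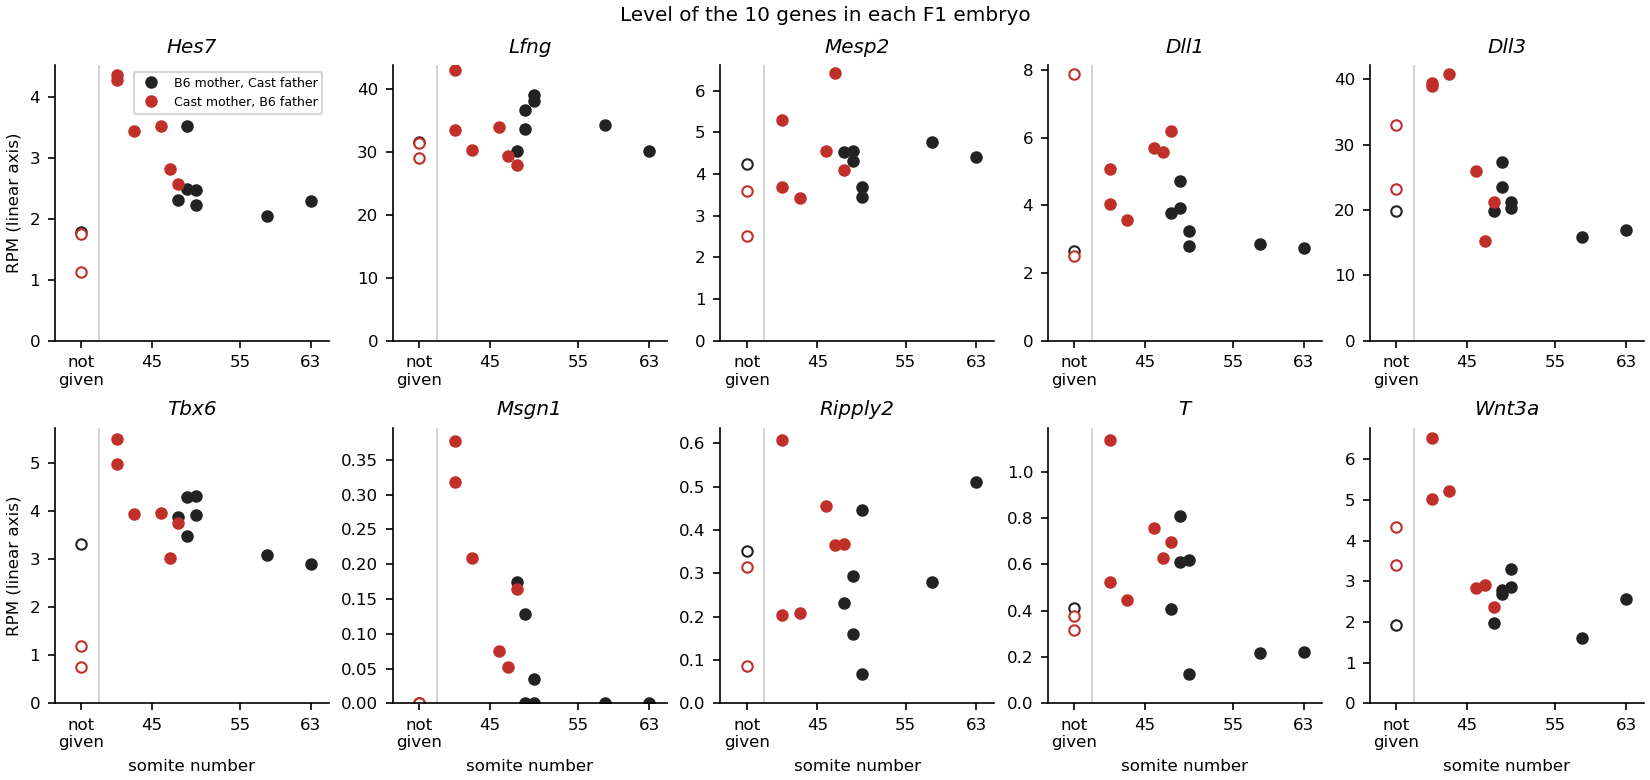
Level of each gene (linear axis, RPM) against somite number in the 16 F1 embryos, 1 point per embryo, black for B6 × Cast and red for Cast × B6, with open circles at the left for the 3 embryos without a somite number. The 3 embryos of 41 to 43 somites are the highest for *Dll3* and *Wnt3a*, and the open red circles are the lowest points for *Tbx6* and *Hes7*.

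Whether the genes change as the embryo adds somites was asked first in the F1 embryos, which had the deepest libraries and the widest stage range. *Dll3* was highest in the youngest embryos. The 3 embryos of 41, 41 and 43 somites had 39.5, 38.9 and 40.9 RPM, those of 46, 47 and 48 somites from the other Cast × B6 litter 25.99, 15.2 and 21.2 RPM, the 5 B6 × Cast embryos of 48 to 50 somites between 19.9 and 27.4 RPM, and the embryos of 58 and 63 somites 15.8 and 16.9 RPM. The 41 to 43 somite embryos, all littermates, did not overlap with any older embryo. *Tbx6* fell from 5.50, 4.99 and 3.95 RPM in the same 3 embryos, through 3.03 to 4.33 RPM at 46 to 50 somites, to 3.08 and 2.91 RPM at 58 and 63 somites, with overlap between each range and the next.

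With the cross as a covariate, *Dll3* fell by 0.73 ± 0.20 (SE) log2 per 10 somites (edgeR quasi-likelihood test, Benjamini-Hochberg adjusted p = 0.0399, n = 13) and *Tbx6* fell by 0.58 ± 0.15 (adjusted p = 0.0302). These were the 2 genes called among the 9 tested, *Msgn1* being below the minimum of 0.2 mean RPM, whereas 2.76% of the 15293 genes tested were called as falling. *Hes7* (slope -0.48 ± 0.17, adjusted p = 0.0884), *Lfng* (-0.34 ± 0.12, 0.0970), *T* (-1.0 ± 0.40, 0.140), *Wnt3a* (-0.64 ± 0.26, 0.143) and *Dll1* (-0.27 ± 0.20, 0.410) did not pass. Slopes were below 0 for 8 of the 9 genes, with a median of -0.48 against 0.04 over all genes. Of the genes called, 60.2% rose, and without TMM normalization 87.8% did, with the median of all genes raised by 0.14, and neither *Dll3* (-0.59, adjusted p = 0.0746) nor *Tbx6* (-0.44, 0.0714) passed. *Mesp2* had a slope of -0.0032 ± 0.18 and *Ripply2* of 0.48 ± 0.41.

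The falls in the F1 embryos could not be told apart from differences between the litters, which differed in stage. With litter in place of cross, an alternative chosen after seeing the data, the slope of *Dll3* was 0.039 ± 0.43 and that of *Tbx6* -0.31 ± 0.48 (edgeR, both with an adjusted p of 1.00), and 0 of 15293 genes were called, so that stage within a litter could not be resolved with these 13 embryos. The call of *Dll3* was also lost on leaving out any 1 of 8 embryos, B6 × Cast replicates 3, 4, 5, 6 or 8 or Cast × B6 replicates 2, 3 or 7 (slopes -0.75 to -0.68, adjusted p 0.0548 to 0.110). The call of *Tbx6* was lost without B6 × Cast replicate 3 or Cast × B6 replicates 2 or 3 (-0.57 to -0.52, 0.0524 to 0.0890). Without B6 × Cast replicate 1, the embryo of 63 somites, *Dll3* had a slope of -1.20, and *Hes7* (-0.84, adjusted p = 0.0325) and *Wnt3a* (-1.43, 0.0156) were called as well. Without both embryos of 58 and 63 somites the slopes were -1.77 for *Dll3*, -0.97 for *Tbx6*, -1.12 for *Hes7* and -1.84 for *Wnt3a*, and all 4 were called.

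*Hes7* had 3.45 to 4.37 RPM at 41 to 43 somites and 2.06 to 3.53 RPM in the 10 older embryos, ranges that overlap through 1 embryo of 46 and 1 of 49 somites. *Wnt3a* had 5.03 to 6.53 RPM at 41 to 43 somites and 1.62 to 3.31 RPM in the older embryos, without overlap. *Msgn1* was read 12, 13 and 8 times in the 3 youngest embryos (0.318, 0.377 and 0.209 RPM), at most 4 times in any embryo of 46 to 50 somites, and not at all at 58 and 63 somites. For *Msgn1* this is a description without a test.

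In the N2 embryos, a separate set with a narrower stage range and shallower libraries, *Dll3* fell again. It had a median of 17.6 RPM (4.34 to 33.4) in the 39 embryos of 46 or fewer somites, 15.5 (3.44 to 38.1) in the 60 of 47 to 50 somites and 15.5 (0 to 32.6) in the 48 of 51 or more. The ranges overlapped almost wholly, so the change was small beside the spread among embryos. With lane and mother as covariates, the slope of *Dll3* was -0.68 ± 0.20 (SE) log2 per 10 somites (edgeR, adjusted p = 0.0196, n = 147), which corresponds to 37.5% less per 10 somites, and the F1 slope above to 39.6% less.

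The slope of *Dll3* was below 0 under all 14 alternatives in the N2 embryos, but its call was often lost. Within flowcell 1 the slope was -0.15 (adjusted p = 0.775) and within flowcell 2 -1.20 (0.0151). With litter in place of lane and mother it was -0.79 (0.336), and with counts summed per litter -0.04 (0.935).

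*Mesp2* also passed in the N2 embryos, with a slope of -1.48 ± 0.48 (adjusted p = 0.0337), but this value moved with the genotype at the gene itself. *Mesp2* was higher in B6/Cast than in B6/B6 embryos, as described below, and B6/Cast embryos had a mean of 48.0 somites against 49.4 in B6/B6 embryos. With the genotype at *Mesp2* as a further term, an alternative chosen after seeing the data, the slope was -0.28 ± 0.38 (adjusted p = 0.756). In flowcell 1 alone it was -2.72 (adjusted p = 0.0014) and in flowcell 2 alone 0.086 (adjusted p = 0.986). Without the single embryo with the most *Mesp2*, an embryo of 46 somites, the slope was -0.79 (adjusted p = 0.365), also an alternative chosen after seeing the data. *Dll3* kept a slope of -0.82 ± 0.21 with the same further term (adjusted p = 0.0045).

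These were again 2 of 9 genes tested, with 3.68% of 15307 genes called as falling and 7 of 9 slopes below 0 (median -0.38 against -0.05 over all genes). Of the genes called 54.4% rose, and without TMM normalization 77.9% did, and neither *Dll3* (-0.59, adjusted p = 0.0665) nor *Mesp2* (-1.30, 0.0748) passed. *T* had a slope of -0.97 ± 0.51 (adjusted p = 0.279), which became -3.41 ± 0.78 (0.00948) with counts summed per litter and 0.10 ± 1.02 (0.983) with embryos of F1 mothers only. The fit on litter sums had flowcell in place of lane, and *T* differed strongly between lanes, as described below. The slope was -0.44 ± 0.40 for *Wnt3a*, -0.38 ± 0.32 for *Hes7*, -0.32 ± 0.32 for *Dll1* and -0.17 ± 0.16 for *Lfng*. *Tbx6* stood at 0.25 ± 0.32 (adjusted p = 0.722) and *Ripply2* at 0.71 ± 0.72. *Tbx6*, which fell in the F1 embryos, thus had a slope within 1 SE of 0 in the N2 embryos, and the difference between the generations was not tested.

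**Figure D2:**
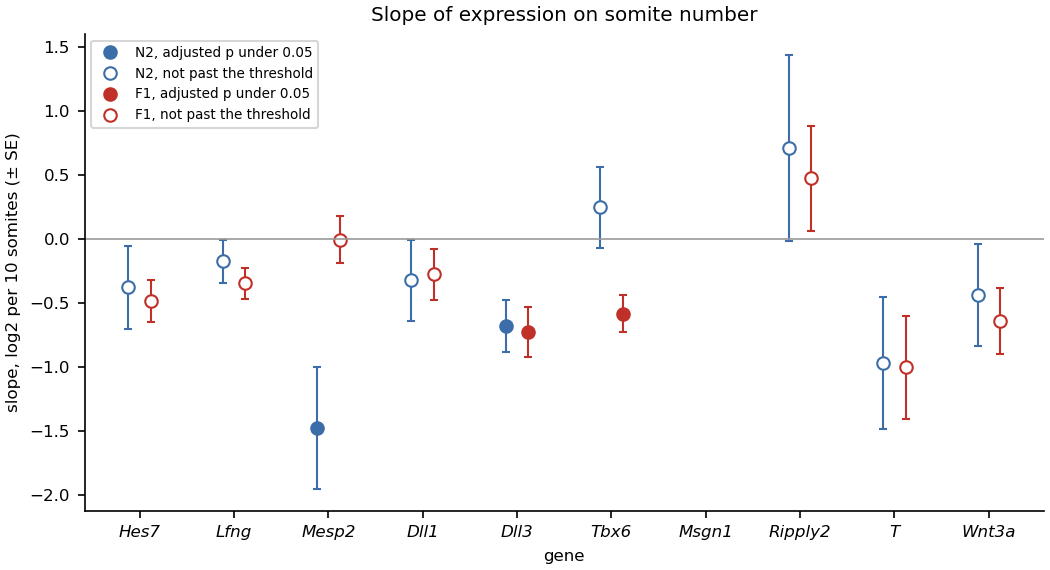
Slope of each gene on somite number (log2 per 10 somites, points, with bars of ± 1 SE) in N2 embryos (n = 147, blue) and F1 embryos (n = 13, red), filled where the adjusted p was under 0.05. *Dll3* is the only gene filled in both generations, and *Mesp2* shows a slope of -1.48 in N2 and near 0 in F1 embryos.

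*Msgn1* had 6 reads in all among the 154 N2 embryos, 1 in each of 6 embryos, 2 of them with 46 or fewer and 4 with 47 to 50 somites. In the 48 embryos of 51 or more somites it was not read. The total was too small for a test.

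**Figure D3:**
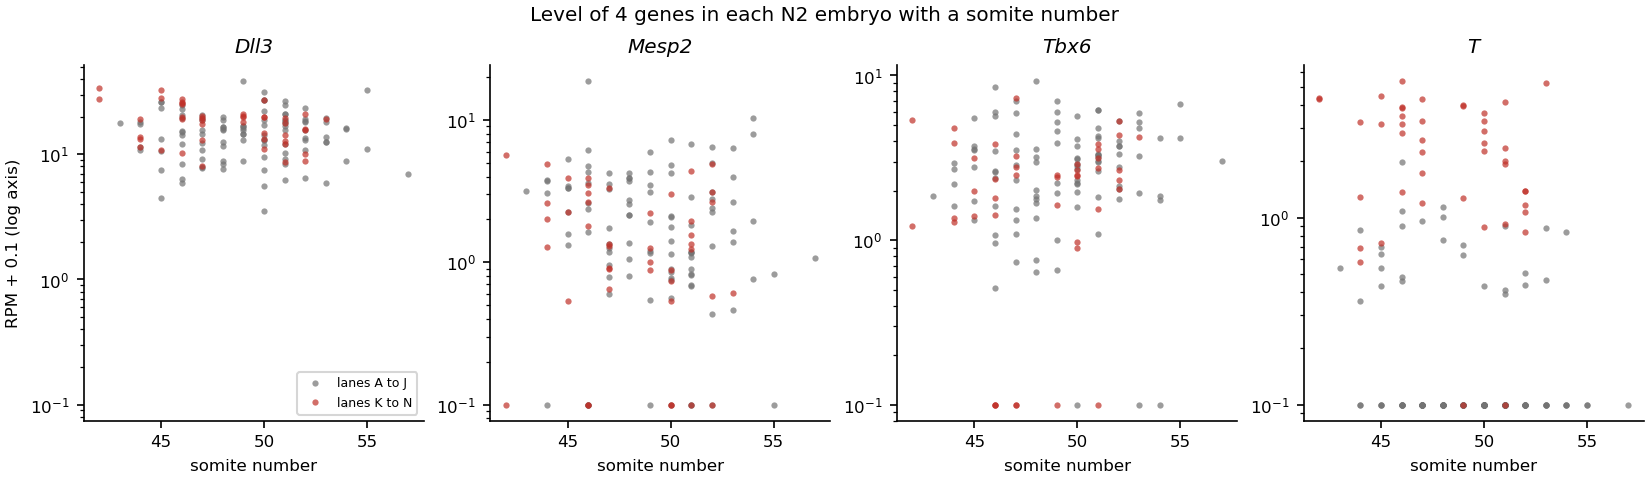
Level of *Dll3*, *Mesp2*, *Tbx6* and *T* (log axis, RPM + 0.1) against somite number in the 147 N2 embryos with a somite number, 1 point per embryo, red for lanes K to N and grey for lanes A to J. Points on the bottom line are embryos with 0 reads, and for *T* most red points lie above most grey points.

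*T*, *Lfng* and *Dll1* differed strongly between sequencing lanes. *T* had a mean of 2.35 ± 1.44 RPM (SD) in the 45 embryos of lanes K to N, 2 of them at 0, and 0.162 ± 0.317 RPM in the 109 embryos of lanes A to J, 79 of them at 0. Lane means of *T* lay between 1.98 and 2.78 RPM in K to N and between 0.0485 and 0.467 RPM in A to J, without overlap. *Lfng* had lane means of 54.6 to 65.03 RPM in J to N and 20.3 to 38.3 RPM in A to I, and *Dll1* of 8.80 to 21.3 RPM and 1.49 to 4.43 RPM.

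Such a split was common. Over all genes tested, 29.1% had every lane mean of K to N above every lane mean of A to J, as *Lfng* and *T* did, and 30.8% had every lane mean of J to N above those of A to I, as *Lfng* and *Dll1* did. The other members overlapped between these lanes. Both sets of lanes had similar mean stages, 48.0 somites in K to N and 49.1 in A to J. Single lanes differed in stage, with 42 to 47 somites in lane N and 46 to 57 in lane I. The part of the lanes in the counts of *T* was not tested beyond the lane terms of the fits. Fits on counts summed per litter had a flowcell term but no lane term.

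Whether slopes depend on the mother was asked with the interaction of mother and somite number. None of the 9 genes was called, against 0.00653% of all genes, a single gene, *Rps20*. *Tbx6* had the smallest unadjusted p of the 9 (slope in embryos of F1 mothers minus that in embryos of B6 mothers 1.51 ± 0.73, p = 0.0417, adjusted p = 0.851). Its slope was 1.40 in embryos of F1 mothers and -0.16 in those of B6 mothers.

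The mother's genotype itself was tested on counts summed per litter, with flowcell and mean somite number as covariates. As in the other fit on litter sums, a litter with embryos on both flowcells was given the flowcell of most of its embryos. No gene was called, 0% of 15313, although 5583 had an unadjusted p under 0.05. *T* was higher with F1 mothers by 1.68 ± 0.45 log2 (adjusted p = 0.0597) and *Tbx6* lower by 0.68 ± 0.27 (a difference of -0.68, adjusted p = 0.0809). On the RPM scale over embryos *T* had means of 0.806 ± 1.26 (F1 mother, n = 65) and 0.797 ± 1.32 (B6 mother, n = 89), and *Tbx6* of 2.23 ± 1.27 and 3.15 ± 1.98. The means of *T* were thus close before any adjustment, and without the somite number as a covariate its difference was 0.78 (adjusted p = 0.401). The fit had no lane term. On flowcell 2 all embryos of F1 mothers were in lanes L and M, where *T* was high. Embryos of B6 mothers were in lanes H to J, where *T* was low, and in K, M and N. Mother and lane were thus linked for *T*, and their parts could not be told apart in this fit.

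*Mesp2* was read mostly from its Cast allele. Allele use was measured as the B6 allele fraction, the share of B6 votes among all votes of reads over SNPs, with 0.5 expected for equal use. *Mesp2* had 141 B6 and 612 Cast votes in the F1 embryos, a fraction of 0.187 (Wilson 95% interval 0.161 to 0.217, counting error only). All 16 embryos lay below 0.5, from 0.0411 to 0.364, with a mean of 0.198 ± 0.0866 (SD, n = 16).

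The fraction was similar whichever parent gave the allele. It was 0.179 (0.142 to 0.223) in B6 × Cast and 0.194 (0.159 to 0.235) in Cast × B6 embryos, and the test for a parental difference gave an adjusted p of 0.985 (edgeR). No member was called in that test among the 8 with enough votes, against 1.26% of 11608 genes. In the 48 heterozygous N2 embryos with votes, 30 B6 and 95 Cast votes gave a *Mesp2* fraction of 0.240 (0.174 to 0.322), with 0.235 for B6 and 0.250 for F1 mothers.

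In the paired test of B6 against Cast votes over F1 and heterozygous N2 embryos together, *Mesp2* had a mean of -0.61 ± 0.12 (SE) votes on the scale of RPM, B6 minus Cast, and a Bonferroni-adjusted p of 0.0282, which misses the threshold of 0.01 used for this test, so that 0 of the 5 members with enough votes were called where 18.9% of 9084 genes were. In the F1 embryos alone *Mesp2* passed the same test, as it did with Benjamini-Hochberg adjustment. The other 4 tested genes had fractions near 0.5 in the F1 embryos, 0.432 for *Hes7* (interval 0.364 to 0.503), 0.481 for *Dll3* (0.435 to 0.527), 0.530 for *Tbx6* (0.490 to 0.570) and 0.496 for *Wnt3a* (0.466 to 0.5257). *T* had 91 votes and a fraction of 0.571 (0.469 to 0.668), *Dll1* 151 votes and 0.530 (0.4504 to 0.608), *Ripply2* 89 votes and 0.517 (0.415 to 0.618), and *Msgn1* 20 votes and 0.750 (0.531 to 0.888). *Lfng* had no votes.

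**Figure D4:**
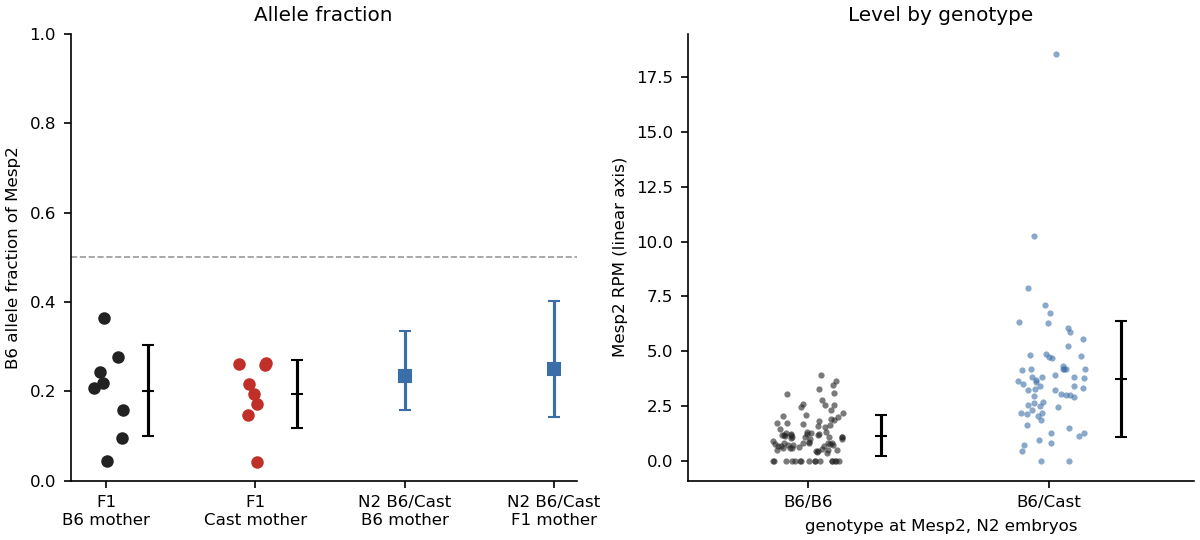
Left, B6 allele fraction of *Mesp2* (0 to 1), with 1 point per F1 embryo and the mean ± SD beside it, and for heterozygous N2 embryos the pooled fraction with its Wilson 95% interval; the dashed line marks 0.5. Right, *Mesp2* level (linear axis, RPM) in N2 embryos by genotype at the gene, 1 point per embryo with the mean ± SD, 1.13 ± 0.939 in B6/B6 and 3.73 ± 2.67 in B6/Cast.

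The total level of *Mesp2* followed the same direction. B6/Cast embryos had between 0 and 18.6 RPM with a median of 3.40 and a mean of 3.73 ± 2.67 (SD, n = 65), and B6/B6 embryos between 0 and 3.89 RPM with a median of 0.989 and a mean of 1.13 ± 0.939 (n = 89). The groups overlapped, with 23 of 65 heterozygotes above the highest homozygote. *Mesp2* was not read in 2 of the heterozygotes and 16 of the homozygotes.

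After lane, mother and somite number were regressed out, the mean difference between genotypes was 1.31 ± 0.14 (SE) on the log2(RPM + 0.5) scale (rank-sum test, Benjamini-Hochberg adjusted p = 1.38e-12), a scale that understates changes of low genes. The difference had the same sign in 14 of 14 lanes. Under B6 mothers the means were 3.76 ± 2.07 (n = 41) and 1.10 ± 0.951 RPM (n = 48), and under F1 mothers 3.66 ± 3.52 (n = 24) and 1.18 ± 0.934 RPM (n = 41). The ratio of the means was 3.29, or 3.09 without the embryo with the most *Mesp2*, whose 18.6 RPM rested on 45 reads, beside a ratio of 2.67 computed from the F1 allele fraction for a Cast allele that replaces a B6 allele.

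Own-locus differences were frequent, with 20.9% of 14802 genes called, and *Mesp2* was the 1 called member of 9 tested. *Dll1* had a difference of -0.26 ± 0.13 (adjusted p = 0.125) and *Tbx6* of -0.22 ± 0.14 (0.594), and the differences of the other 6 lay between -0.07 and 0.10. *Mesp1*, which had the same genotype as *Mesp2* in every embryo, differed by 0.15 ± 0.11 (adjusted p = 0.308). Its means were 0.368 ± 0.474 RPM (SD) in B6/Cast and 0.343 ± 0.462 in B6/B6 embryos. These lie below the 0.5 RPM added before the log, so a change of *Mesp1* would be understated. *Tbx6* and *Dll3*, on the same chromosome as *Mesp2*, shared its genotype in 77.3% and 70.8% of embryos. The relation of the allele fraction to somite number was tested for 3342 genes with 10 called, and no member had enough votes to enter it.

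No somite number is given in the labels for 3 F1 and 7 N2 embryos. They were set beside their littermates or lane neighbours, a comparison chosen after their values had been seen. In both Cast × B6 litters the embryo without a number had little *Tbx6* and *Hes7*. In litter 1, *Tbx6* stood at 1.19 RPM (41 reads) against 3.95 to 5.50 in the 3 littermates, and in litter 2 at 0.755 RPM (12 reads) against 3.03 to 3.98. *Hes7* stood at 1.13 against 3.45 to 4.37 RPM and at 1.76 against 2.58 to 3.52 RPM. Both genes were thus below every littermate in both litters.

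*Mesp2* had 2.52 against 3.43 to 5.31 RPM in litter 1 and 3.59 against 4.10 to 6.42 RPM in litter 2. *Ripply2* (0.0869 and 0.315 RPM) and *T* (0.376 and 0.315 RPM) were also below every littermate, and *Msgn1* was not read in either embryo, where the littermates had 8 to 13 and 1 to 4 reads. Of the 9 members tested, 5 lay below every littermate in both litters, against 6.89% of 15307 genes. *Lfng* lay within the littermates' range in both litters. *Wnt3a* was below its littermates in litter 1 (4.34 against 5.03 to 6.53 RPM) and above them in litter 2 (3.40 against 2.38 to 2.92 RPM).

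The B6 × Cast embryo without a number was different. Its *Tbx6* level of 3.31 RPM lay above those of its 2 littermates, 2.91 and 3.08 RPM, whereas *Hes7* with 1.79 RPM lay below 2.06 and 2.30. With only 2 littermates, 30.7% of all genes were below both, and 3 of the 9 tested members were, *Hes7*, *Mesp2* and *Dll1*.

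**Figure D5:**
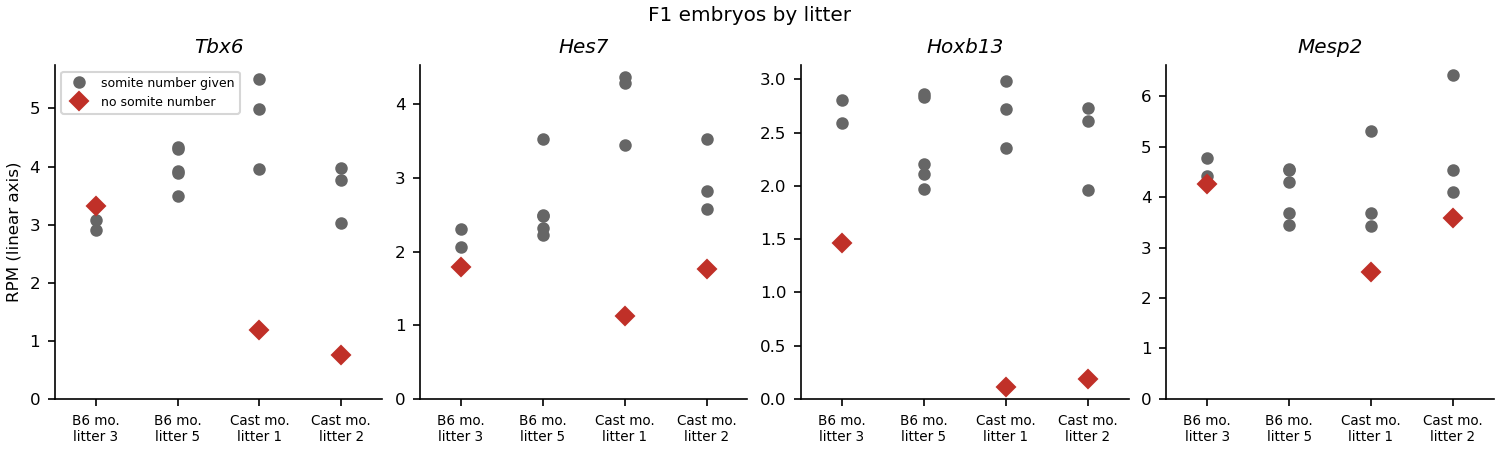
Level of *Tbx6*, *Hes7*, *Hoxb13* and *Mesp2* (linear axis, RPM) in the 4 F1 litters, grey circles for embryos with a somite number and red diamonds for the 3 without one. In both Cast × B6 litters the diamonds lie below all circles for these 4 genes, with *Hoxb13* at 0.116 and 0.189 RPM.

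*Hoxb13*, a posterior Hox gene of the tail tip that was named after its values had been seen, stood at 0.116 RPM (4 reads) against 2.35 to 2.99 in litter 1, at 0.189 RPM (3 reads) against 1.97 to 2.73 in litter 2, and at 1.47 RPM against 2.59 to 2.80 in the B6 × Cast litter. Of the tail bud and axial progenitor list, 5 of 22 genes tested were below every littermate in both Cast × B6 litters, *Fgf18*, *Wnt5a*, *Wnt8a*, *Hoxb13* and *Hoxc13*. Of 16 segment boundary and early somite genes 2 were (*Mesp1* and *Tcf15*), of 12 neural progenitor and new neuron markers 2 (*Neurod4* and *Olig2*), and of 6 notochord and floor plate markers 1 (*Nog*). None of the 24 clock partners, 6 roof plate or 5 myotome markers was.

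When all 3 were compared with the 13 other F1 embryos in 1 fit with litter as a covariate, no gene was called, 0% of 15307, and 786 had an unadjusted p under 0.05. B6 × Cast litter 5 held no embryo without a number, so its embryos did not inform the differences beyond their error. *Tbx6* had a difference of -1.15 ± 0.32 log2 (p = 0.00294, edgeR adjusted p = 0.836), *Hes7* of -0.89 ± 0.23 (p = 0.00145, adjusted p = 0.836) and *Hoxb13* of -2.30 ± 0.44 (p = 9.35e-05, adjusted p = 0.716). Without the B6 × Cast embryo the difference of *Tbx6* was -2.03 (adjusted p = 0.000896), and it was 1 of 2 genes called, with *Hes7* at -1.24 (0.302). The comparison was chosen after these values were seen, and the embryo left out is the 1 whose *Tbx6* lay above its littermates. This p is therefore only a description. Without the embryo of litter 1 the differences were -0.71 for *Tbx6* and -0.49 for *Hes7*, and without that of litter 2 they were -0.78 and -0.99, none of them called.

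Among the N2 embryos, the 7 without a number had a median of 0.885 RPM *Hes7* (0 to 1.85) and 1.79 RPM *Tbx6* (1.18 to 3.21), and in all 7 both genes lay below the median of the embryo's lane, as did 1.34% of 15301 genes. Of the other members, *Wnt3a* lay below it in 6 of 7, *Dll1* and *Dll3* in 5, *Lfng* in 4, *Mesp2* in 3, *Ripply2* in 2 and *T* in 1, and *Msgn1* was not read. The lane median of *T* was 0 in lanes A, B, C and H, so *T* could lie below it only in lane L (0.616 against 2.39 RPM). That of *Ripply2* was 0 in lanes B, H and L, so the counts of these 2 genes do not show whether they were reduced. Beside littermates with a somite number, 1 to 5 per embryo, *Hes7* lay below the litter median in all 7. *Tbx6* did so except in the embryo of lane H, which had 3.21 RPM (4 reads) against a litter median of 2.69. The library sizes of the 7 ran from 1246775 to 3388244 reads. With lane and mother as covariates *Hes7* differed by -1.20 ± 0.38 log2 (p = 0.00191) and *Tbx6* by -0.82 ± 0.35 (p = 0.0219), both with an adjusted p of 1 (edgeR). *Mesp2* (0.19 ± 0.47) and *Ripply2* (0.71 ± 0.61) had differences above 0, unlike in the Cast × B6 litters. Of 15301 genes 0.0131% were called, *Apoa4* and *Fbp2*, neither of them a member. *Hoxb13* lay below the lane median in 5 of 7 and differed by -0.43 ± 0.39. Why these embryos have no somite number is not given in the labels. The paper states that a count was missing for 5 N2 embryos, against 7 in the labels, and it does not name them.

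The wider pathway was read from lists drawn up by known role, and the genes named from each list are those with the smallest p in the N2 embryos. Over all genes tested, 4.4% rose and 3.68% fell in N2 and 4.18% rose and 2.76% fell in F1, the shares against which the counts of each list are to be read. Of 24 partners of the clock in the Notch, Wnt and FGF pathways, all tested, 2 fell with somite number in the N2 embryos and 0 rose, with a median slope of -0.26, and 2 others, the Notch target *Hes5* and the MAP kinase phosphatase *Dusp4*, fell in the F1 embryos (median -0.18). *Heyl*, a Notch target, fell by 0.45 ± 0.13 log2 per 10 somites in N2 (adjusted p = 0.0136), and *Nkd1*, a cycling Wnt antagonist, fell by 0.30 ± 0.10 (0.0423), with F1 slopes of -0.29 (0.136) and -0.10 (0.513). *Spry4*, an FGF antagonist, had a slope of 0.81 ± 0.29 (0.0655).

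Of 24 tail bud and axial progenitor genes, 5 fell and 1 rose among 20 tested in N2, and 3 fell and 1 rose among 22 tested in F1. *Lin28a*, an RNA-binding protein of early progenitors, fell by 1.91 ± 0.30 in N2 (adjusted p = 4.22e-07) and by 1.96 ± 0.35 in F1 embryos (0.00670). *Fgf8*, the FGF ligand that keeps the tail end of the presomitic mesoderm immature, fell by 1.42 ± 0.24 (4.47e-06) and by 1.12 ± 0.23 (0.0122). *Fgf18* rose by 0.87 ± 0.19 (0.000814) and by 0.43 ± 0.11 (0.0358).

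Of 18 segment boundary and early somite genes, 1 of 16 tested fell in N2 and 2 of 17 in F1. *Tcf15*, a bHLH factor of newly formed somites, fell by 0.99 ± 0.15 (adjusted p = 4.12e-07) and by 0.63 ± 0.17 (0.0371). *Pax3*, of the dorsal somite and dorsal neural tube, fell by 0.95 ± 0.13 in F1 (0.00177) and had a slope of -0.75 ± 0.27 in N2 (0.0709). *Uncx*, of the posterior somite part, had -0.59 ± 0.21 in N2 (0.0623) and -0.04 in F1 embryos.

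Several members are also expressed outside the tail. *Dll1*, *Dll3* and *Hes7* relatives act in the neural tube, *Wnt3a* in the roof plate and *T* in the notochord. Some markers of these tissues moved with stage as well, those of the notochord and floor plate only in N2. Of 12 neural progenitor and new neuron markers 3 fell and 0 rose in N2 (*Olig2* -0.94 ± 0.20, *Sox2* -0.79 ± 0.23 and *Neurog1* -0.58 ± 0.19) and 2 fell in F1. Their summed level nevertheless had a median of 602.2 RPM (289 to 989) at 46 or fewer somites and 647 (302 to 1167) at 51 or more. Of 6 roof plate markers 2 fell in N2, *Rspo1* (-0.70 ± 0.13) and *Msx1* (-0.47 ± 0.10), and 3 fell in F1, where *Wnt1* fell by 1.29 ± 0.25 (adjusted p = 0.00960).

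The summed roof plate level had a median of 576 RPM (294 to 739.6) at 46 or fewer and 483 (181 to 667) at 51 or more somites. Of 7 notochord and floor plate markers, 6 were tested. In N2 *Shh* fell by 1.74 ± 0.44 (edgeR adjusted p = 0.00372) and *Nog* rose by 1.09 ± 0.35 (0.0345). *Foxa2* had a slope of -1.58 ± 0.56 (0.0622). The summed level of this list had a median of 33.1 RPM (14.7 to 83.8) at 46 or fewer and 33.9 (12.2 to 73.998) at 51 or more somites. No marker of the list was called in F1, where the slope was 0.07 ± 0.32 for *Shh*, 0.06 ± 0.26 for *Foxa2* and 0.63 ± 0.21 for *Nog*. Of 6 myotome markers 4 rose in N2 and 2 of 5 in F1, and *Mylpf* rose by 0.92 ± 0.15 and 0.74 ± 0.13. *Myod1* rose by 0.98 ± 0.22 and 0.59 ± 0.15. *Myog* rose by 0.86 ± 0.20 in N2 and was not called in F1 (0.42 ± 0.13). The summed myotome level had a median of 421 RPM (219 to 732) at 46 or fewer and 649 (284 to 893) at 51 or more somites. The part of these tissues in the slopes of *Dll3*, *Wnt3a* and *T* was not tested.

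Rank correlations between members were low among the N2 embryos. They were computed for the 28 pairs of 8 members, leaving out *Msgn1* and *Ripply2*, which had too few reads. After centring by lane, the highest Spearman rho over the 154 embryos was 0.288 for *Tbx6* and *Wnt3a*, followed by 0.233 for *Lfng* and *Dll1*, 0.231 for *Lfng* and *T* and 0.211 for *Hes7* and *Tbx6*, and the lowest was -0.146 for *Mesp2* and *Dll3*. The points share library depth, and counts of a few reads keep such values low, so they are descriptions and say nothing about independence. The reads of *Hes7*, *Mesp2*, *Tbx6*, *Msgn1* and *Ripply2* were also summed, giving 2 to 51 reads per embryo with a median of 15. The genes with the most similar pattern to this sum were *Snapc4* (rho 0.392), *Ager* (0.387), *Eif4g3* (0.366), *Sipa1* (0.336) and *Fgf3* (0.333), the extremes of 15298 genes between -0.411 and 0.392.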

How the data were processed

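Single whole E11.5 embryos were profiled by 3SEQ. After trimming, Bowtie2 mapping to mm9 and to a Cast version of mm9 and removal of repetitive reads, the authors deposited raw read counts on the exons of each gene, not normalized. They also deposited allele votes, estimated counts in which the SNPs under a read share 1 vote and which are not scaled. The genotypes deposited by the authors hold a code per gene and embryo (unit other than counts) made with a hidden Markov model. Code 0.5 was read as B6/Cast, 1 as B6/B6 and 0 as not called, since 50.0% of autosomal votes under 0.5 and 0.194% under 1 were Cast. Each F1 embryo has 2 runs in the labels and a single count here, read as the total of both.

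The labels gave the groups, litters, lanes and somite numbers. Of 168 N2 columns, 14 were left out, 8 whose labels name no mother and 6 without a genotype. RPM is the count scaled to 1000000 counts per embryo. Python 3.11.15, NumPy 2.4.6, SciPy 1.17.1, pandas 2.3.3, R 4.3.3, edgeR 4.0.16 and DESeq2 1.42.0 were used. Expression was fitted in edgeR (quasi-likelihood test, TMM normalization) over all genes whose mean reached 0.2 RPM and called at a Benjamini-Hochberg adjusted p under 0.05, with lane and mother (N2) or cross (F1) as covariates. Allele-specific expression used a paired test on votes scaled as RPM and needed 20 votes per group. Own-locus genotypes were tested with a rank-sum test on residuals of log2(RPM + 0.5), whereas the study ran a rank-sum test on PEER-normalized expression, with embryo sex among the known covariates. Embryos of a litter share a mother, so p-values over embryos measure the spread among embryos of few litters.

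On data simulated from the real means, the N2 somite fit recovered 61% of genes changed by 1 log2 per 10 somites and 91% of those changed by 2, with 7 false calls among 15307 genes. The F1 fit recovered 59% and 97%, with 8 false calls among 15293. The simulated counts held no differences between lanes, litters, mothers or crosses, so false calls from such differences were not measured. Alternatives varied normalization, filters, batch terms, subsets and tests.

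The 10 genes and the lists were chosen with earlier results of these data known. The genes named are all 10 members, the 3 genes of each list with the smallest p in the N2 somite fit, and the 5 genes, members left out, with the highest Spearman rho with the summed reads of *Hes7*, *Mesp2*, *Tbx6*, *Msgn1* and *Ripply2*. *Mesp1*, *Rps20*, *Hoxb13*, *Apoa4*, *Fbp2*, *Hes5*, *Dusp4* and the further list genes below their littermates were named after their values were seen.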

Additional observations from a re-analysis of the deposited data

Results flagged for a closer look

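In 29 groups of 8 F1 embryos (the levels and allele fractions of the members in each cross), Dixon's test of a sample far from the others marked 2, and chance marks about 1 in 20. The *Hes7* level of B6 × Cast replicate 4 (49 somites) was 3.53 RPM where the other 7 embryos of the cross had 1.79 to 2.50 RPM, a gap of 0.592 of the whole range. The *Lfng* level of Cast × B6 replicate 3 (41 somites) was 43.1 RPM where the others had 27.9 to 34.1 RPM, a gap of 0.593 of the range. The 14 N2 libraries left out of every comparison held 497 reads of the 10 genes, 249 of them of *Lfng*, 71 in the 8 libraries whose labels name no mother and 426 in the 6 without a genotype.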

How the results depend on the processing

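Of 573 values of single members under the alternatives, 464 kept their direction and their side of the threshold, 52 that were not called in either setting differed in sign, 34 were no longer past the threshold, 20 newly passed it and 3 of called members changed sign. The 3 were the N2 slope of *Mesp2* (0.086 in flowcell 2, 0.27 with counts summed per litter) and the F1 slope of *Dll3* (0.039 with litter in place of cross). Where 2 members, *Dll3* and *Mesp2*, were called with somite number in N2, 0 members were called with embryos of B6 mothers only, of F1 mothers only, without the 2 embryos of most extreme somite number, with litter as the batch term, without TMM or by Spearman after lane and mother. The number called was 1 with DESeq2, in flowcell 2, with the genotype at *Mesp2*, without the embryo with the most *Mesp2* and with at least 5 RPM (*Dll3* each time), and 1 in flowcell 1 (*Mesp2*). It was also 1 with counts summed per litter (-3.41, adjusted p = 0.00948) and by Spearman without covariates, but this was *T*, and neither *Dll3* nor *Mesp2* passed there. Both of these settings lacked a lane term. For the F1 slopes the 2 became 4 with DESeq2, 6 without the cross term, 4 without the embryos of 58 or more somites, 0 with litter in place of cross, without TMM or with at least 5 RPM, and 0 to 4 on leaving out each embryo. For the slope by mother 0 became 1 without lane (*T*, 4.63, adjusted p = 0.00313), and for the mother's genotype 1 with DESeq2 (*T*) and 2 with embryos as replicates in edgeR (*T* and *Tbx6*). For allele-specific expression 0 became 1 (*Mesp2*) in F1 embryos only, with Benjamini-Hochberg adjustment and with edgeR on F1 votes. For own-locus genotypes 1 became 0 with at least 5 RPM, since *Mesp2* is then not tested. For the F1 embryos without a somite number 0 became 0 to 1 on leaving out each. The cause of the other changes was not tested.

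Over all genes, the 1237 N2 calls became 675 and 105 with B6 or F1 mothers, 328 in flowcell 2, 138 with litter and 2520 by Spearman, and the 1061 F1 calls 1909 with DESeq2, 0 with litter, 3157 without the cross term, 523 with at least 5 RPM, 2802 without the oldest embryos and 304 to 1703 on leaving out each embryo. The slope by mother went from 1 call to 2 (DESeq2), 41 and 0 (flowcells 1 and 2) and 5932 (without lane), the mother's genotype from 0 to 2689 (DESeq2), 8545 (embryos, edgeR) and 489 (Mann-Whitney). Allele-specific calls went from 1714 to 1085, 2889 and 5520 under the 3 alternatives above, parental bias from 146 to 47 with binomial tests, allele fraction against somite number from 10 to 2 (lane) and 17 (10 votes), and the missing somite number from 2 to 1 (litter) and 0 (5 RPM) in N2 and from 0 to 2 in F1 with DESeq2 or without B6 × Cast replicate 2. No paired analysis was possible because the replicate numbers are only names in accession order and embryos of different crosses come from different litters. The median N2 depth puts 1 read near the level of *T*, *Ripply2* and *Msgn1* in many embryos, so their changes were not detectable here unless large. The alternatives on the *Mesp2* genotype and embryo, on F1 litters and single embryos, and on missing somite numbers were chosen after seeing the data.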
